A study of Mus musculus with 8 samples.

Results

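The dopamine receptor genes Drd1, Drd2, Drd3, Drd4 and Drd5 were followed in sorted striatal neurons of a Huntington's disease mouse model. They were chosen by name, from the gene name that the array gives to each probe, with Drd1 listed under its older name Drd1a. Each of the 5 genes had 1 probe, printed as 1 spot, so 5 of 55681 non-control probes, or 5 of 34783 gene and transcript names, are described. A probe was tested where at least 4 arrays called its spot well above background, which held for 41385 probes, among them 4 receptor probes but not that of Drd5.

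Medium spiny neurons are the GABA-releasing projection neurons that make up most of the striatum. The RNA came from such neurons of male mice aged 4 weeks, isolated by fluorescence-activated sorting as cells carrying the Venus fluorescent protein and excluding propidium iodide, a dye that enters dead cells. In 4 samples the mice were R6/2;Scn4b-Venus, and in 4 they were WT;Scn4b-Venus, called control here. The R6/2 transgene holds the first exon of the human HTT gene with a lengthened CAG repeat, added to the mouse's own Htt genes. All mice of both groups carried the Scn4b-Venus reporter, named for the sodium channel subunit gene Scn4b, so cells whose Venus fell below the gate are not in either group. The labels do not say how many mice gave each sample, and where samples were not from separate mice the p-values measure only the spread between these samples.

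Dopamine receptors are G protein-coupled receptors of 2 families. The D1-like receptors, Drd1 and Drd5, couple to stimulatory G proteins and raise cyclic AMP. The D2-like receptors, Drd2, Drd3 and Drd4, couple to inhibitory G proteins and lower it. In the striatum Drd1 is the receptor of direct pathway neurons, which project to the substantia nigra, and Drd2 is that of indirect pathway neurons, which project to the external pallidum. Drd3 is best known from the ventral striatum, Drd4 from cortex, retina and pineal gland, and Drd5 from cholinergic interneurons and hippocampus.

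The probes of the D2-like receptors are printed because Drd2 was the tested receptor with separate groups, Drd3 and Drd4 were the ones with the widest spread, and a probe can report a single receptor only as far as its sequence differs from the others. Capitals mark the longest run that any pair of the 5 receptor probes shares, 10 bases, which lies in the Drd3 and Drd4 probes.
Drd2: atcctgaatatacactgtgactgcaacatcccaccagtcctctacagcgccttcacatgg
Drd3: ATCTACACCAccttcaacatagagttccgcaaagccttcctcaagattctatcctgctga
Drd4: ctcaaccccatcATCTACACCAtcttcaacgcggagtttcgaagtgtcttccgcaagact

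The other pairs of receptor probes shared runs of 5 to 7 bases out of 60. By the array's own mm9 positions the Drd2 probe lies at chr9:49215047-49215106 on the plus strand, the Drd3 probe at chr16:43822893-43822952 on the plus strand and the Drd4 probe at chr7:148480683-148480742 on the plus strand. The Drd1 probe lies at chr13:54147277-54147336 on the minus strand and the Drd5 probe at chr5:38713278-38713337 on the plus strand. An mm9 annotation was not used here, so the exon or untranslated region of each probe is not given. The probes are listed for the transcripts NM_010076 (Drd1), NM_010077 (Drd2), NM_007877 (Drd3), NM_007878 (Drd4) and NM_013503 (Drd5).

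Drd2 and Drd1 had lower mean levels in R6/2 than in control neurons, at 54.3% and 59.1% of the control mean, and neither difference passed the test over all probes. The Drd2 values of the 2 groups did not overlap, and those of Drd1 did. Drd3 and Drd4, whose probes were dim, also had lower means, by amounts within the spread of their arrays. The Drd5 probe was not well above background on any array. All values below are the log2 of the processed intensity minus the log2 of the array's 75th percentile, called level, and differences are R6/2 minus control. Levels of different probes are not compared with each other, since probes differ in how brightly they bind. In a pooled sample of sorted cells, fewer neurons of 1 type and less RNA per neuron cannot be told apart.

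**Figure D1:**
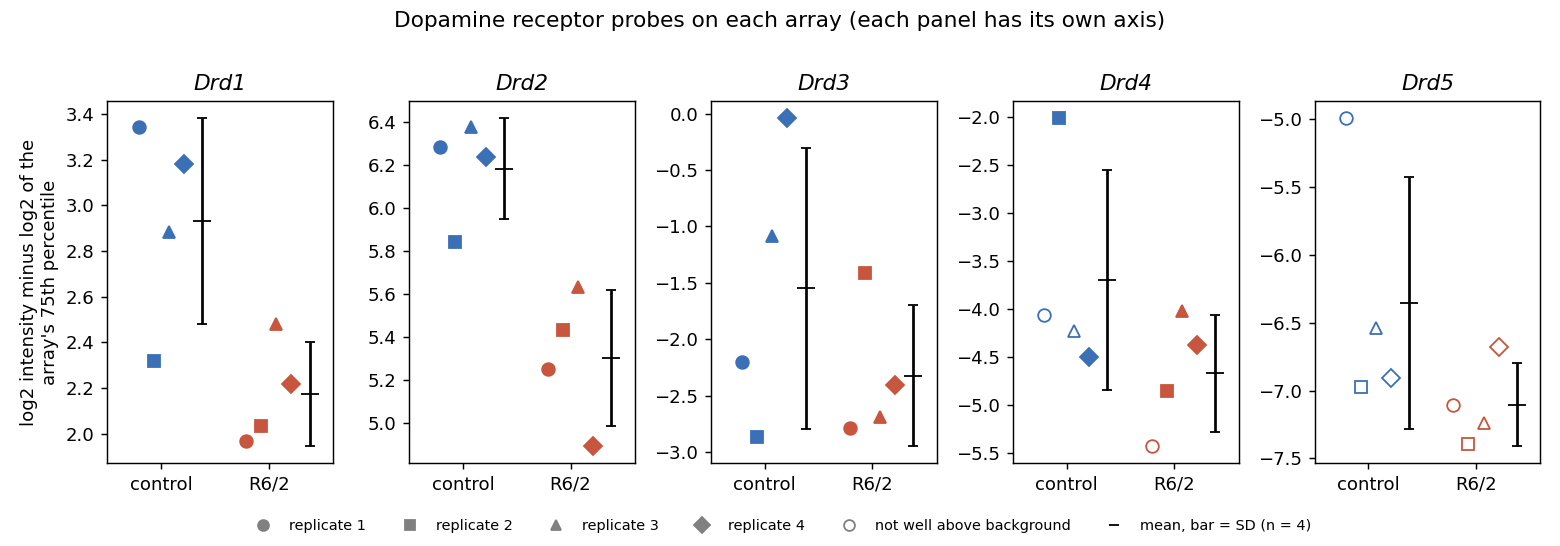
Level of each receptor probe (log2 intensity minus log2 of the array's 75th percentile, a separate axis for each gene) on the 4 control and 4 R6/2 arrays, with open symbols for spots not well above background and bars for the mean and SD. The Drd2 groups are separate, those of Drd1, Drd3 and Drd4 overlap, and all Drd5 spots are open.

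Among the D1-like receptors, Drd1 had processed intensities of 3589, 1708, 2463 and 3088 on control replicates 1 to 4. On R6/2 replicates 1 to 4 they were 1228, 1498, 2053 and 1779. The levels were 3.35, 2.32, 2.88 and 3.18 in control neurons and 1.97, 2.03, 2.48 and 2.22 in R6/2 neurons. Control replicates 1, 3 and 4 were above every R6/2 array, while control replicate 2 was below R6/2 replicate 3, so the groups overlapped. The mean level was 2.93 ± 0.45 (SD, n = 4) for the control arrays, against 2.17 ± 0.23 (SD, n = 4) for R6/2. The difference was -0.76 (SE 0.27, 95% interval -1.37 to -0.15), which is 59.1% of control with an interval of 38.7% to 90.3%. In limma it had an unadjusted p of 0.0207 and a Benjamini-Hochberg adjusted p of 0.664 over all tested probes. The control arrays differed among themselves by up to 2.10-fold in intensity, against a spot error of 10.0% given by the scanner software. Leaving out 1 array at a time did not bring it past the threshold, with -0.96 without control replicate 2 and -0.62 without control replicate 1.

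Drd5, the other D1-like receptor, had processed intensities of 11.1, 2.72, 3.58 and 2.83 in control and of 2.28, 2.18, 2.44 and 3.74 in R6/2 neurons. The probe was well above background on 0 of 4 control and 0 of 4 R6/2 arrays, and on 6 arrays the software had replaced the signal by a surrogate value for dim spots. The spot errors, 86.7% to 101% of the signal, were about as large as the signals. The highest value, that of control replicate 1, lay on the array with the highest background limit: its lowest signal well above background was 51.3, against 7.77 to 16.9 on the other arrays. No fold and no test are given for Drd5, and its transcript was not detectable with this probe.

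Among the D2-like receptors, Drd2 had processed intensities of 27513, 19648, 27731 and 25696 on control replicates 1 to 4. On R6/2 replicates 1 to 4 they were 11992, 15829, 18300 and 11354. The levels were 6.28, 5.84, 6.38 and 6.24 in control neurons and 5.25, 5.43, 5.63 and 4.89 in R6/2 neurons. Every R6/2 array was below every control array, with a gap of 0.21 between R6/2 replicate 3 and control replicate 2, the lowest control. The mean level was 6.19 ± 0.24 (SD, n = 4) for the control arrays, against 5.30 ± 0.32 (SD, n = 4) for R6/2. The difference was -0.88 (SE 0.23, 95% interval -1.41 to -0.35), which is 54.3% of control with an interval of 37.6% to 78.3%. In limma its unadjusted p was 0.00466, rank 342 of the 41385 probes, and its Benjamini-Hochberg adjusted p was 0.561.

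Drd3, which was well above background on all 8 arrays but dim, had processed intensities of 76.7, 47.1, 157 and 332 in control and of 45.6, 138, 57.1 and 72.2 in R6/2 neurons. Control replicate 4 was the highest array and R6/2 replicate 1 the lowest in intensity, and the groups overlapped over most of their range. The highest control array was 7.05-fold above the lowest, while the spot errors were 10.0% to 17.5%, so the arrays of 1 group differed by far more than the error of a single spot. The mean level was -1.55 ± 1.25 (SD, n = 4) for the control arrays, against -2.32 ± 0.63 (SD, n = 4) for R6/2. The difference of -0.78 (SE 0.61, 95% interval -2.16 to 0.61) had a limma adjusted p of 0.821. Without control replicate 4 it was -0.27.

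Drd4 had processed intensities of 21.2, 85.3, 17.9 and 15.1 in control and of 7.31, 12.7, 22.7 and 18.5 in R6/2 neurons. The spot was well above background on 2 of 4 control arrays, replicates 2 and 4, and on 3 of 4 R6/2 arrays, replicates 2, 3 and 4. Control replicate 2 stood above the other arrays, and the remaining values overlapped. The mean level was -3.70 ± 1.14 (SD, n = 4) for the control arrays, against -4.67 ± 0.61 (SD, n = 4) for R6/2. The difference of -0.97 (SE 0.57, 95% interval -2.27 to 0.32) had a limma adjusted p of 0.772. Without control replicate 2 it was -0.41, and spot errors ran from 10.4% to 57.3%.

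Read against the array as a whole, all 4 tested receptor probes had a negative difference, as did 44.5% of all tested probes. Drd1 and Drd2 had an unadjusted limma p under 0.05 in the lower direction, which 3.05% of tested probes had. Drd2 had separate groups with R6/2 lower, which 2.26% of tested probes had. The median difference over all tested probes was 0.05. At an adjusted p under 0.05, 1 probe (0.00242%) was called in the whole comparison, the unnamed probe A_55_P2128060, which was higher in R6/2 by 6.51, and 0 of the receptor probes were. At an unadjusted p under 0.05 there were 2905 probes (7.02%), and those higher in R6/2 made up 3.97% of tested probes.

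In the authors' deposited table the fold is 1.69 down for Drd1 and 1.85 down for Drd2, with authors' corrected p-values of 0.836 and 0.710. In the authors' deposited table the folds of the dim probes are 1.71 down for Drd3, 1.96 down for Drd4 and 1.68 down for Drd5. The Drd5 spot was not well above background on any array.

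Whether the receptors of the direct and the indirect pathway changed by different amounts was asked within each array, as the Drd2 level minus the Drd1 level. This was 2.94, 3.52, 3.49 and 3.06 in control and 3.29, 3.40, 3.16 and 2.67 in R6/2 neurons, and the groups overlapped. Its mean was 3.25 ± 0.30 (SD, n = 4) for the control arrays, against 3.13 ± 0.32 (SD, n = 4) for R6/2. The shift of Drd2 minus that of Drd1 was -0.12, with a two-sided exact permutation p of 0.6 over the 70 assignments of the arrays, whose smallest possible p is 0.0286. The interval from inverting that test was -0.849 to 0.463, so shifts between the receptors within this range were not rejected by these arrays. Without R6/2 replicate 4, the only array on the second slide, the shift was 0.029 (exact permutation p = 0.914).

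Over the 8 arrays the Drd1 and Drd2 levels had a Pearson r of 0.85, and after subtracting each group's mean the r of their deviations was 0.55. With Drd3 the r of the levels was 0.52 for Drd1 and 0.52 for Drd2. These r describe 8 arrays that share the genotype difference, the scaling and the RNA sample. Control replicate 2 was the lowest control array for Drd1, Drd2 and Drd3, and it was the highest for Drd4.

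**Figure D2:**
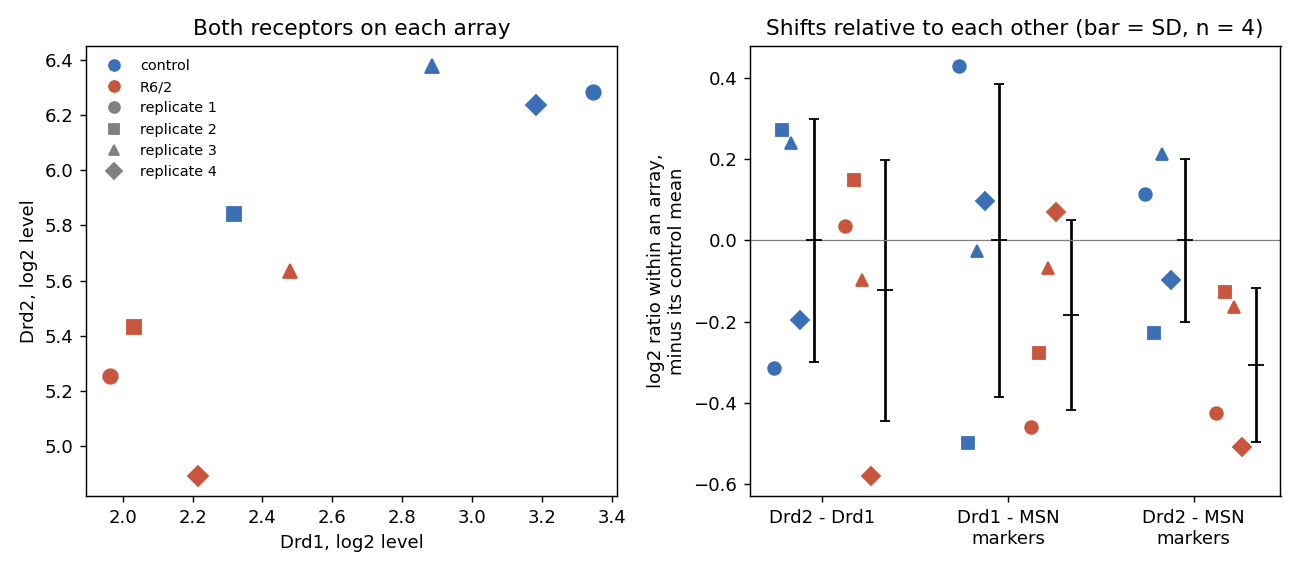
Left, the Drd2 level against the Drd1 level on each of the 8 arrays. Right, 3 log2 ratios within an array, set to 0 at the control mean, with the mean and SD of each group (MSN, medium spiny neuron). The control and R6/2 values overlap in all 3 ratios.

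The sorted samples had the markers of their labelled cell type. All 12 medium spiny neuron markers were well above background, among them Ppp1r1b (DARPP-32, the phosphatase inhibitor downstream of both receptors) and Gad1 (a GABA-synthesising enzyme). Ppp1r1b and Rgs9 also stand in the lists of receptor signalling genes. By the brightest tested probe of each gene, the differences of all 12 were negative (median -0.49), as were those of 44.5% of all tested probes. Other tested probes reached 0.26 for Foxp1 and -0.15 for Arpp21, but -1.23 for Pde10a and -1.05 for Rgs9. Of the 12 markers 5 had an unadjusted limma p under 0.05, all lower, against 3.05% of all tested probes. Scn4b, whose reporter set the sort gate, had a mean level of 6.27 in control and 5.12 in R6/2 neurons, a difference of -1.15 (SE 0.29, limma adjusted p = 0.552). What part the gate had in the receptor values was not tested.

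The mean level of the 12 markers was 5.08, 4.98, 5.08 and 5.25 on the control arrays and 4.59, 4.47, 4.71 and 4.31 on the R6/2 arrays, so every R6/2 array was below every control array. Relative to that mean, the Drd1 level shifted by -0.18 (exact permutation p = 0.457). Relative to the same mean, Drd2 was 1.09 ± 0.20 (SD, n = 4) for the control arrays, against 0.78 ± 0.19 (SD, n = 4) for R6/2, a shift of -0.31 (exact permutation p = 0.114). These 2 comparisons with the markers were added after the data were seen. With the Drd2 and Drd1 comparison they make 3, and the Benjamini-Hochberg adjusted exact permutation p-values were 0.6 for Drd2 against Drd1, 0.6 for Drd1 and 0.343 for Drd2.

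Markers of other cell types were measured beside the receptors. The differences of all 7 oligodendrocyte markers were negative (median -0.87), as were those of 44.5% of all tested probes. Of these markers 0 had an unadjusted limma p under 0.05, against 7.02% of all tested probes. Their summed linear level was 7.39, 60.2, 20.6 and 9.82 on control replicates 1 to 4 and 6.44 to 15.0 on the R6/2 arrays, so control replicate 2, the lowest control for Drd1 and Drd2, was the highest array for this sum of myelin genes. The part of these cells in the receptor values was not tested, and without that array both receptor differences were larger, -0.96 for Drd1 and -0.997 for Drd2.

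Cholinergic interneurons carry Drd2 and Drd5. Of 10 interneuron markers 7 were tested, 5 of them with a negative and 2 with a positive difference. Calb2 and Vip were not well above background on any array. Among the cholinergic markers, Chat, the acetylcholine-synthesising enzyme, was well above background on 1 array. The choline transporter Slc5a7 was so on 6 arrays and the vesicular acetylcholine transporter Slc18a3 on 8. Slc18a3 was at -0.40 (SE 0.21, limma adjusted p = 0.749), with every R6/2 array below every control array, which 2.26% of tested probes had. The other transporter, Slc5a7, was at -0.52 (SE 0.58). The interneuron list's summed level was 166 to 188 in control and 147 to 171 in R6/2 neurons, with 93.1% to 99.3% of it from Lhx6. Such sums compare arrays, not genes or cell types, since bright probes weigh most in them. Of 8 astrocyte markers 6 were tested, 1 of them with a negative difference, and their summed level was 1.98 to 3.87 in control and 2.15 to 5.26 in R6/2 neurons. Of 8 microglial markers 7 were tested, 3 of them with a negative and 4 with a positive difference. Their sum was 179 to 199 in control and 148 to 173 in R6/2 neurons. The brightest Itgam probe made up 80.5% to 88.6% of that sum. This probe was at -0.21 (SE 0.17), while another tested Itgam probe was at 0.26. Of 7 cortical glutamatergic markers 3 were tested, with a sum of 1.01 to 1.25 in control and 0.897 to 1.88 in R6/2 neurons. Slc17a6 and Neurod6 were not well above background on any array. The part of these cell types in the receptor values was not tested.

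Downstream of the receptors, 17 genes for G proteins, effectors and kinase targets were measured. Of these, 10 had a negative and 7 a positive difference, with a median of -0.22. No gene of this list passed the adjusted limma test. Against 3.05% of all tested probes, 3 had an unadjusted p under 0.05, all lower. Separate groups with R6/2 lower, found for 2.26% of tested probes, were found for all 3. They were Adcy5, the main striatal adenylyl cyclase on which both receptor families act, at -0.95 (SE 0.23, limma adjusted p = 0.552), Ppp1r1b at -0.54 (SE 0.20) and Ppp1ca, a catalytic subunit of protein phosphatase 1, at -0.46 (SE 0.19). The other tested Adcy5 probes had smaller differences, the smallest being -0.50. Gnal, the stimulatory Golf subunit to which striatal Drd1 couples, had a difference of -0.40 (SE 0.21), and its other tested probe was at -0.63. Of the inhibitory subunits used by D2-like receptors, Gnai2 was at -0.77 (SE 0.36), Gnao1 at -0.44 (SE 0.24) and Gnai3 at 0.77 (SE 0.55), and none of these brightest probes had an unadjusted p under 0.05. The other tested Gnao1 probe was at -1.11.

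Of 19 genes for receptor kinases, arrestins, the RGS9 complex and receptor-binding proteins, 11 had a negative and 8 a positive difference, with a median of -0.16. None passed the adjusted limma test, and 2 had an unadjusted p under 0.05, both lower, against 3.05% of all tested probes. Flna, filamin A, which binds D2-like receptors, was at -0.84 (SE 0.30), and Ppp1r9b, spinophilin, at -0.47 (SE 0.19, separate groups), both with an unadjusted p under 0.05. Rgs9, which speeds the shut-off of inhibitory G proteins, was at -0.53 (SE 0.24) and Arrb2, an arrestin that binds activated Drd2, at 0.68 (SE 0.39), both short of it. The other tested Rgs9 probes had larger differences, down to -1.05. Epb41l2 was at 0.63 (SE 0.29) and the receptor kinase Grk3 at 0.89 (SE 0.52), with its other tested probe at 1.01.

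Genes for dopamine synthesis, transport and breakdown belong mostly to the dopamine neurons that supply the striatum. Of 12 such genes 10 were tested, with 1 negative and 9 positive differences and a median of 0.28. Over all tested probes 44.5% of the differences were negative. Of the 10 genes 0 had an unadjusted limma p under 0.05, against 7.02% of all tested probes. Ddc, which forms dopamine from L-DOPA, was at 1.99 (SE 1.003; 0.63 with its other tested probe) and Maob, which breaks it down, at 1.65 (SE 0.79). The vesicle transporter Slc18a2 was at -0.65 (SE 0.30), while its other tested probe was at 0.47.

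The receptors were also set beside other markers of the neurons that carry them. Of 11 direct pathway markers other than Drd1, 8 had a negative and 3 a positive difference, with a median of -0.30. None passed the adjusted limma test. Against 3.05% of all tested probes, 4 had an unadjusted p under 0.05, all lower. These were Cntnap3 at -1.80 (SE 0.39, limma adjusted p = 0.485), Asic4 at -0.68 (SE 0.20), the muscarinic receptor Chrm4 at -0.77 (SE 0.26) and Pdyn, the dynorphin precursor, at -0.79 (SE 0.26). The other tested probes of Asic4 and Pdyn were at -0.76 and -0.49. Tac1, the substance P precursor, was at -0.08 (SE 0.19). For Cntnap3, Asic4 and Chrm4 every R6/2 array was below every control array, which 2.26% of tested probes had. Isl1, a transcription factor of direct pathway neurons, was at 0.26 (SE 0.18). Its R6/2 arrays were all above its control arrays, which 2.31% of tested probes had.

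Of 9 indirect pathway markers other than Drd2, 8 had a negative and 1 a positive difference, with a median of -0.37. None passed the adjusted limma test. Against 7.02% of all tested probes in either direction, 3 had an unadjusted p under 0.05. Penk, the enkephalin precursor, was at -0.74 (SE 0.18, limma adjusted p = 0.552) with separate groups. Plxdc1 was at -1.44 (SE 0.61), though its other tested probe was at -0.07. Sp9, a transcription factor of indirect pathway neurons, was at 0.65 (SE 0.26) with every R6/2 array above every control array, which 2.31% of tested probes had. Adora2a, the adenosine receptor that opposes Drd2 in these neurons, was at -0.53 (SE 0.30). Each pathway list thus held genes of both signs.

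**Figure D3:**
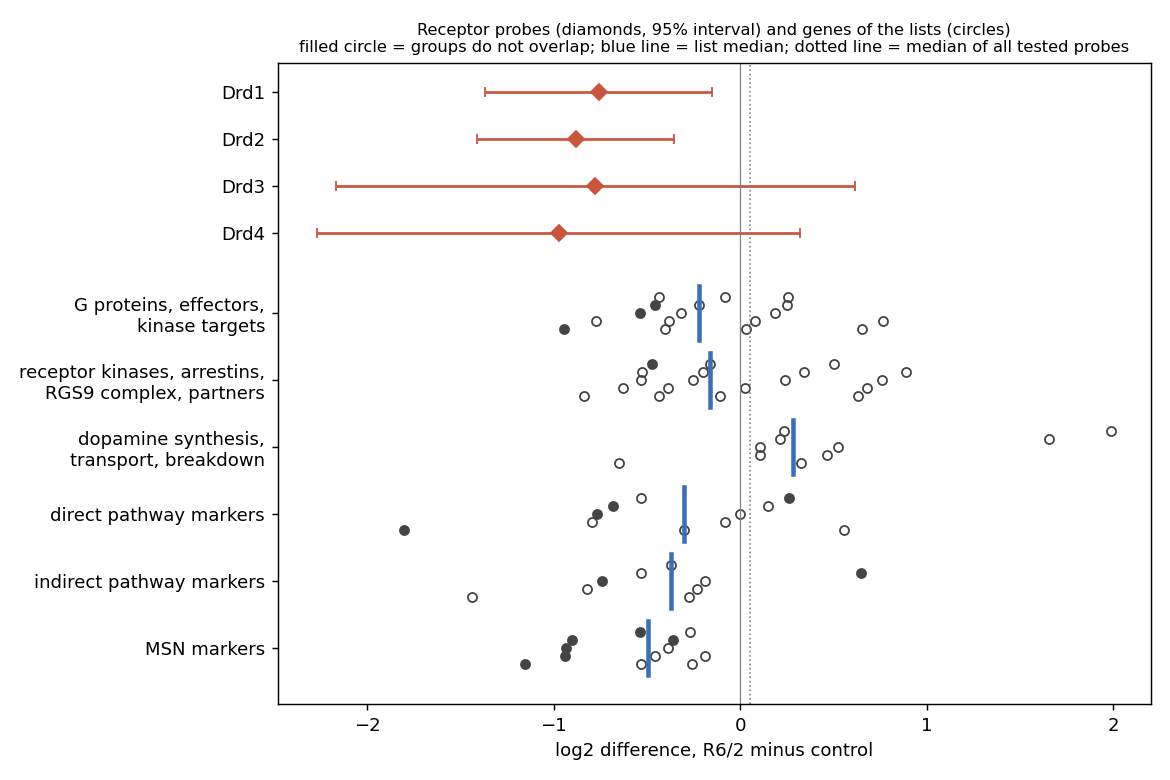
Difference of the tested receptor probes (diamonds with 95% intervals) and of the genes of 6 lists (circles, filled where the groups do not overlap), in log2 units, R6/2 minus control. Blue lines are list medians, from -0.49 for the medium spiny neuron markers to 0.28 for the dopamine synthesis list, and the dotted line is the median of all tested probes, 0.05.

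The genes whose levels were most like those of each receptor over the 8 arrays were taken from 15469 annotated genes. For Drd1 they were Tomm70a (r = 0.975), Kcnk2 (0.972), Upf2 (0.968), Gad2 (0.959) and Nus1 (0.953). For Drd2 they were Phactr1 (r = 0.964), Cap1 (0.963), Akt2 (0.961), the phosphodiesterase gene Pde10a (0.961) and Isca2 (0.958). Their differences ran from -0.94 for Pde10a to -0.19 for Gad2, and their negative sign follows from the choice, since both receptors were lower on the R6/2 arrays used for it. On deviations from the group means the lists were others: Zfp825, Mta2, Timm29, Tceanc2 and Pcdhb22 for Drd1 (r from 0.973 to 0.980), and Spint1, Mindy2, Zbtb33 and Mogat2 for Drd2 (r from 0.963 to 0.982). No gene stood in both lists of a receptor. The highest r of 15469 over 8 arrays is a description of these arrays.

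The nearest annotated genes on the chromosome were looked up for comparison. Gm4894 beside Drd2, Tigit beside Drd3 and Slc2a9 beside Drd5 were on the array but had no tested probe. Beside Drd1, Msx2 was at 0.65 (SE 0.49) and Sfxn1 at -0.53 (SE 0.27), with a further Sfxn1 probe at 0.35. Beside Drd2, Ankk1 was at -0.07 (SE 0.92). Beside Drd3, Qtrt2 was at 0.90 (SE 0.44), and beside Drd4, Sct was at -0.02 and Deaf1 at -0.05, with further Deaf1 probes down to -0.47. Beside Drd5, Otop1 was at 0.08 (SE 0.39), with a further probe at -0.30. By its brightest probe, none of the tested neighbours passed the adjusted limma test. None had an unadjusted p under 0.05, which 7.02% of all tested probes had.

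The promoters of Drd1 and Drd2 are printed because these receptors are the ones with bright probes and lower means. Each is the 250 bases before a transcript start listed by RefSeq on GRCm38.p6, a later build than that of the probe positions, in the direction of the gene. Capitals mark the GC box GGGCGG on either strand, a motif bound by Sp family factors.
Drd1 promoter, chr13:54055659-54055908, minus strand: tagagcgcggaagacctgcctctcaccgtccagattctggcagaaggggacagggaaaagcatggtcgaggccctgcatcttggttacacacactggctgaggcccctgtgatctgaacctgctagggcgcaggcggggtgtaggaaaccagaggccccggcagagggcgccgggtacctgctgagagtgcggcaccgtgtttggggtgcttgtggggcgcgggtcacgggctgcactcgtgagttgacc
Drd2 promoter, chr9:49340153-49340402, plus strand: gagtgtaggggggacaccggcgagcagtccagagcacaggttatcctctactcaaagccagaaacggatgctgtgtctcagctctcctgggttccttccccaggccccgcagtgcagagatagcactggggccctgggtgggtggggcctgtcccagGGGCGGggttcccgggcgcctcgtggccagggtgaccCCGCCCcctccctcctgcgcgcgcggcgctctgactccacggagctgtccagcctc

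The GC content of these stretches was 64.0% for Drd1 and 68.8% for Drd2. The GC box was matched 0 times in the printed Drd1 promoter, once in that of the other listed Drd1 start, 2 times in Drd2, 0 times in Drd3, 3 times in Drd4 and 2 times in Drd5. Of 32851 RefSeq promoters of the same length, 32.7% hold it. None of the 5 genes' promoters held TATAAA, which 12.4% of promoters hold, or the cyclic AMP response element TGACGTCA or its core TGACG, which 1.55% and 17.8% hold, all searched on both strands. The core is contained in the full element. The matches are letters in these windows and no evidence of binding.

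**Figure D4:**
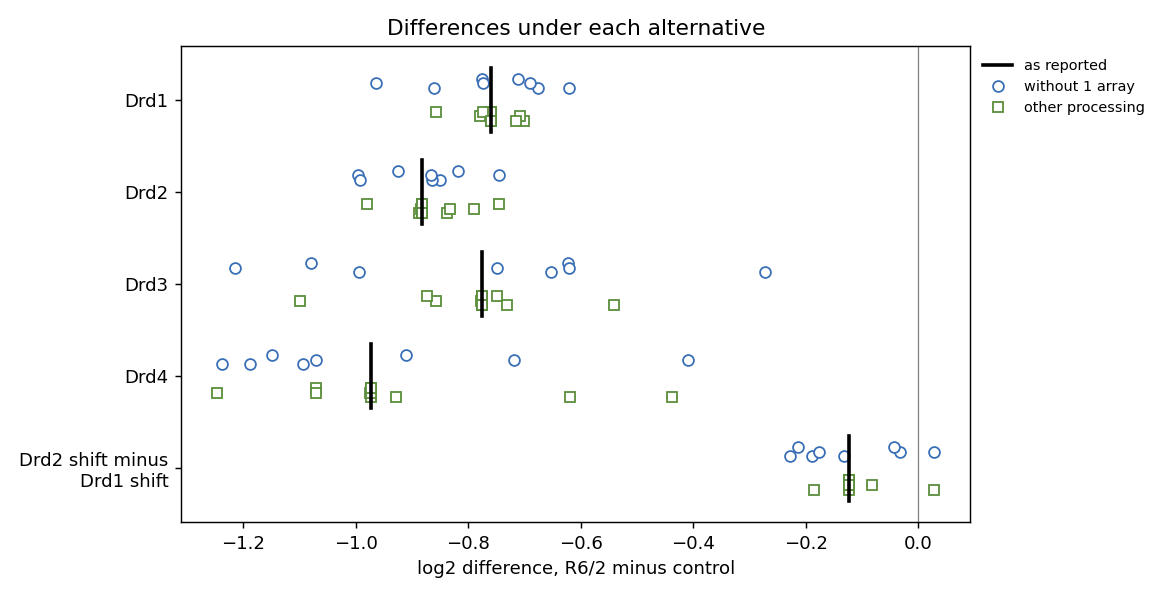
Difference of each tested receptor probe, and of the Drd2 shift minus the Drd1 shift, in log2 units (R6/2 minus control), as reported (black lines), without 1 array (circles) and under other processing (squares). Drd1 stays between -0.96 and -0.62 and Drd2 between -0.997 and -0.74, Drd3 and Drd4 reach -0.27 and -0.41 without 1 control array, and the lowest row reaches 0.029.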

How the data were processed

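RNA of 8 sorted-cell samples was hybridised to Agilent arrays with 1 dye. Per the file headers, the authors' scanner files hold spot intensity values from Feature Extraction 10.7.3.1, background-corrected, with surrogate values for dim spots, and with probe positions on mm9. The deposited whole-series table holds the authors' log2 values, p-values and absolute fold changes. Its 8 columns of detection marks were not used. In 1 file, a garbled line was left out, so 62974 of 62976 spots were read.

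Outlier spots were left out, and log2 processed intensities were scaled to each array's 75th percentile over non-control probes. Probes well above background on at least 4 arrays were tested with limma 3.58.1 on R 4.3.3 (two-sided lmFit and eBayes), and p-values were adjusted over 41385 probes by Benjamini-Hochberg, threshold 0.05. Names were updated through RefSeq GRCm38.p6 by accession for 26864 probes, by symbol for 3751 and by older symbol for 623, and 24443 kept the file's name. A list gene was represented by its brightest tested probe. Ratios within arrays were compared by exact permutation tests. The limma step was tested on simulated data.

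Of each list, up to 6 genes with the smallest p-values were named. Gnai3, Tac1, Gad1, Chat and the list genes not above background, beyond these, were named for their role after their values were seen. Foxp1, also beyond these, was named for its probes of both signs after its values were seen. Some genes that the rule would name are not reported here. The receptors and the lists were chosen with earlier results of these data known. The share of probes well above background was 50.1% on control replicate 1 and 67.8% to 78.8% on the other arrays, and R6/2 replicate 4 alone was on the second slide. The number of arrays limits the precision. Alternatives covered background correction, scaling, filters, tests, weights, slide and single arrays.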

Additional observations from a re-analysis of the deposited data

How the results depend on the processing

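The differences of Drd1 (-0.96 to -0.62) and Drd2 (-0.997 to -0.74) kept their sign and stayed short of the adjusted threshold under all 21 alternatives, with adjusted p from 0.461 to 0.833 and from 0.356 to 0.816. Drd3 (-1.21 to -0.27, 21 alternatives) and Drd4 (-1.25 to -0.41, 20 alternatives) did as well. Since these alternatives called 0 to 8 probes in all, staying short of the threshold says little about stability. The Drd2 groups were separate under all 7 sets of values, and the Drd4 groups only with normexp. The shift of Drd2 minus that of Drd1 turned to 0.029 with the slide as a block, which equals leaving out R6/2 replicate 4, and ran from -0.23 to 0.029 when 1 array was left out. The shift of Drd2 relative to the marker mean was -0.36 with normexp, with the smallest exact permutation p possible, 0.0286, against 0.114 as reported and 0.0286 to 0.25 over the alternatives.

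The count of probes called in limma was 1 as reported, 8 with normexp, 2 with quantile normalization, 7 among probes above background on all 8 arrays, 8 with array weights, 0 with the slide as a block, 0 with the replicate block and 0 with the plain unpaired test named in the authors' table. With 1 array left out it was 0 to 3, with 3 without control replicate 1. At an unadjusted p under 0.05 limma had 2905 probes and the plain unpaired test 2796. Same-numbered samples of the genotypes had deviations with r of -0.04 to 0.02. The labels name no pairing, and these r cannot exclude one. The replicate block changed no call of a receptor. The counts of negative differences in the lists were recomputed without each array after seeing the data. For the 5 pathway lists only dopamine synthesis moved by over 1.5 times, from 1 to 2 without R6/2 replicate 1 or 4. Among the cell type lists the astrocyte count ran from 1 to 3 and the cortical glutamatergic count from 0 to 2. The oligodendrocyte count ran from 6 to 7, and the medium spiny neuron count was 12 throughout. The causes were not tested.

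Means over several probes of a receptor, and tests between them, gave no value, since each receptor has 1 probe. The same holds for Drd4 among probes above background on all 8 arrays. Drd3, Drd4 and Drd5 are limited by signal over background, and all results by 4 arrays a group.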
